A study of Mus musculus with 11 samples.

Results

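The transcripts described here encode 9 small GTPases of the Ras branch: Rap1a, Rap1b, Rap2a, Rap2b, Rap2c, Rala, Ralb, Nras and Hras. They were chosen by name, and each symbol matched 1 row of a deposited table of 55471 Ensembl mouse genes. All 9 passed the filter on low counts, which left 12404 genes for testing. The sequenced RNA came from CD4+ cells of C57BL/6 mice, taken from inguinal and axillary nodes. The cells were purified by removing other cells with beads and were kept for 2 h with 1.25 µg/ml concanavalin A, which is a T cell mitogen. Every library thus comes from cells treated with this mitogen, and no untreated cells were compared here. The WT group held 5 libraries. The GLC group held 6 libraries from Pggt1bfl/flLys-Cre mice, in which Cre under a lysozyme promoter, active in macrophages and other myeloid cells, removes floxed Pggt1b, and GLC replicate 78 was made from RNA of 2 pooled mice. The sources used here give neither age nor sex.

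Small GTPases are switches that signal while bound to GTP. Exchange factors load them with GTP, and GTPase-activating proteins return them to the GDP-bound state. In T cells Rap1 turns chemokine and antigen receptor signals into integrin adhesion, Ras carries the antigen receptor signal to the ERK kinases, and Ral couples Ras to the exocyst and to vesicle traffic. All of these proteins end in a CAAX box, a cysteine followed by a short tail, on which a lipid is placed so that the protein can sit on a membrane. The geranylgeranyl transferase called GGTase I, whose catalytic subunit is encoded by Pggt1b, prefers a leucine as the last residue, and farnesyltransferase prefers other residues there.

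The ends of the 9 coding sequences are shown because they hold the signal that sorts these proteins between both enzymes. Each line gives the last 60 coding bases, stop codon included, 5′ to 3′ from GENCODE M21 (GRCm38), with the 4 codons of the CAAX box in capitals.
Rap1a: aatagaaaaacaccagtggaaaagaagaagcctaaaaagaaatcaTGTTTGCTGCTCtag
Rap1b: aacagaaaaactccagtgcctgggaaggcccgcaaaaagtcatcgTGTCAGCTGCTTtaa
Rap2a: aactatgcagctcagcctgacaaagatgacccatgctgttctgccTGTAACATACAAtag
Rap2b: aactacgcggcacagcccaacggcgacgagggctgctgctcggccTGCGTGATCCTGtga
Rap2c: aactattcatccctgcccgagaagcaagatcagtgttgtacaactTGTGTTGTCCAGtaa
Rala: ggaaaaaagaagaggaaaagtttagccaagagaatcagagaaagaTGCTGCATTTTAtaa
Ralb: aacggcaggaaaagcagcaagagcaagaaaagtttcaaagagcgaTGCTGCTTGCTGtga
Nras: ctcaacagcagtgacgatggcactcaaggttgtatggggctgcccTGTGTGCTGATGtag
Hras: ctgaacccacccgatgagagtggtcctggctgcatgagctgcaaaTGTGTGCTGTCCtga

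The CAAX box opened with a cysteine codon in all 9 sequences. The last codon before the stop coded for leucine in 5 of them, Rap1a, Rap1b, Rap2b, Rala and Ralb, and for another residue in the other 4, Rap2a, Rap2c, Nras and Hras. The 60 bases held 1 cysteine codon in both Rap1 genes, 2 in both Ral genes and Nras, and 3 in Hras and each Rap2 gene. Cysteines just before the CAAX box are where palmitate is added to Hras, Nras and Rap2 proteins. Each stretch lies in a single exon. In GRCm38 these stretches are chr3:105731985-105732044 for Rap1a (minus strand), chr10:117817374-117817433 for Rap1b (minus), chr14:120503779-120503838 for Rap2a (plus), chr3:61365549-61365608 for Rap2b (plus) and chrX:51015005-51015064 for Rap2c (minus). They are chr13:17882379-17882438 for Rala (minus), chr1:119471706-119471765 for Ralb (minus), chr3:103063390-103063449 for Nras (plus) and chr7:141191348-141191407 for Hras (minus).

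Over the whole coding region, tails included, the relatives are alike in sequence. Base identity was 81.6% between Rap1a and Rap1b, 75.1% between Nras and Hras and 74.1% between Rala and Ralb. Among the Rap2 genes it was 82.6% for Rap2a and Rap2b, 75.9% for Rap2a and Rap2c and 71.2% for Rap2b and Rap2c. A processed pseudogene, Gm9392, matched 554 bases of Rap1a at 98.6% identity and held 41 counts over the 11 libraries, against 10477 for Rap1a. The reverse-strand gene B430305J03Rik shares 3702 of the 6793 exonic bases of Rap2b. The sources used here do not say whether the authors' counting used strand, so reads of both genes cannot be told apart and the level of Rap2b is uncertain in that respect. B430305J03Rik itself held 53 counts against 7322 for Rap2b. A retained-intron transcript of Dlst matched 347 bases of Rap2a at 94.8% identity. Dlst as a whole gene held 23270 counts, against 2281 for Rap2a. How many of these counts fall in the matching stretch was not measured, so the level of Rap2a is uncertain as well.

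The libraries held between 11308285 and 14620148 counts. Of the marker lists made, that of T cells, Cd4 included, had the highest level. The summed level of its 8 genes was between 3450 and 3860 CPM (counts scaled to library size, with TMM factors) in WT. In GLC it was between 3340 and 3820 CPM. Cd4 itself had a mean of 372 CPM in WT and 341 CPM in GLC. Of the 2 CD8 T cell markers, Cd8a had 4 counts in WT and 9 in GLC in all, while Cd8b1 had 713 and 858, a mean of 10.4 CPM in WT and 11.6 in GLC. Their summed level was between 8.23 and 13.5 CPM in WT and between 10.5 and 14.4 CPM in GLC. The summed level of 8 B cell markers was between 7.02 and 16.1 CPM in WT and between 6.57 and 18.5 CPM in GLC, and that of 10 macrophage and monocyte markers was between 4.09 and 6.57 CPM in WT and between 4.47 and 7.06 CPM in GLC. A single gene gave most of each sum. Blk had a mean of 7.24 CPM in WT and 6.57 in GLC, and Cd68 3.40 and 3.93 CPM. Lyz2, the lysozyme gene, had 12 counts in WT and 0 in GLC, each summed over the libraries of the group. The macrophage markers differed in direction, with Csf1r at 24 counts in WT and 11 in GLC, Cd68 at 231 and 290 and Mertk at 0 and 8. Of 5 platelet markers, Pf4, Ppbp, Gp9 and Gp1bb were at 0 counts, and the fifth, Itga2b, gave a list sum between 5.63 and 11.5 CPM in WT and between 6.76 and 10.4 CPM in GLC. The 5 stromal and endothelial markers summed to between 141 and 189 CPM in WT and between 128 and 185 CPM in GLC. Pecam1 gave most of that sum, with means of 165 CPM in WT and 156 CPM in GLC. The 5 dendritic cell markers summed to at most 10.3 CPM in WT and 12.3 CPM in GLC. The 5 natural killer markers summed to at most 2.69 CPM in WT and 4.68 CPM in GLC. The labels place the Pggt1b deletion in macrophages, so its level in these cells, 39.3 ± 4.52 CPM in WT (SD, n = 5) against 49.1 ± 6.70 in GLC (SD, n = 6), does not check the genotype. GLC replicate 9 stood apart with 633 counts over 4 Y-linked genes, where every other library had at most 1. It also held 11 counts of the X-linked Xist, against 2992 to 5943 in the other libraries. By these counts GLC replicate 9 alone looked male and the others female, though the labels give no sex. WT replicate 1 stood apart with 10.0% of its counts in Gm42418, a transcript that overlaps ribosomal RNA sequence, against 5.99% to 7.82% elsewhere. Because these are bulk samples, fewer cells of a type and less RNA per cell cannot be told apart.

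Rap1b was by far the most abundant of the 9 transcripts per length. Its level over all 11 libraries was 177 ± 27.5 CPM per kilobase of merged exons (SD, n = 11), 5.26 times that of Nras, which came next at 33.7 ± 1.89 CPM per kilobase. Rap1a followed at 28.3 ± 2.97, Rala at 23.8 ± 2.27 and Rap2c at 23.5 ± 1.32 CPM per kilobase. A gap then separated Rap2b at 7.60 ± 0.660, Hras at 6.42 ± 0.976, Rap2a at 3.84 ± 0.568 and Ralb at 2.49 ± 0.478 CPM per kilobase (SD, n = 11 for each). Rap2b was placed by its full length, part of which it shares with B430305J03Rik.

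On the counts as given, the order was clear at the top and between Rap2c and Rap2b, where the ranges over the 11 libraries did not meet. Rap2c was 3.09 times as high as Rap2b per kilobase of merged exons. That ratio carries the uncertainty of the Rap2b level, since Rap2b shares 3702 of its exonic bases with B430305J03Rik. Nras lay above Rap1a in 10 of 11 libraries and Rap1a above Rala in 10 of 11, with ranges that overlapped. Rala and Rap2c did not differ beyond their spread, since Rala was the higher one in 5 of 11 libraries. Hras lay above Rap2a, and Rap2a above Ralb, in 11 of 11 libraries. The lower places depended on the length used. With the longest transcript in place of merged exons Hras was at 8.48 CPM per kilobase, above Rap2b, and Ralb at 4.48, above Rap2a.

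**Figure D1:**
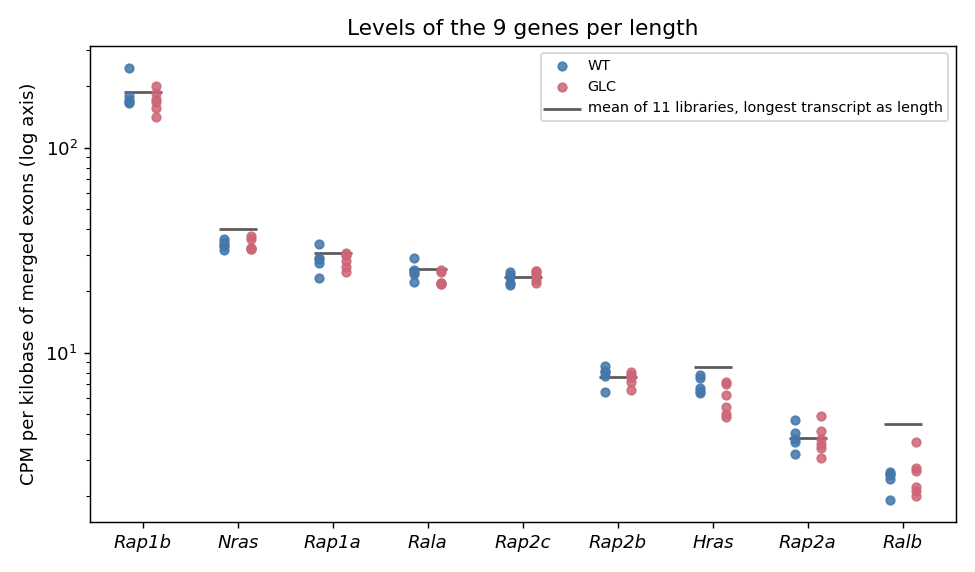
Level of each gene in each library in CPM per kilobase of merged exons, on a log axis, for 5 WT (blue) and 6 GLC (red) libraries, with grey bars for the 11-library mean when the longest transcript is the length. Rap1b stands at 177 CPM per kilobase on average, and the next gene, Nras, at 33.7.

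Each family thus had 1 leading transcript in these cells, in both groups. Rap1b made up 86.7% ± 1.07 (SD, n = 5) of Rap1 transcripts per length in WT, against 85.7% ± 0.711 (SD, n = 6) for GLC. Rala made up between 90.2% and 92.1% of Ral transcripts per length in WT and between 87.3% and 91.6% in GLC. Nras made up between 81.0% and 84.2% of the sum of Nras and Hras in WT and between 82.1% and 87.7% in GLC. Among Rap2 transcripts per length, Rap2c held 66.5% ± 2.22 in WT and 67.8% ± 2.62 in GLC, Rap2b 22.3% ± 2.08 and 21.3% ± 1.72, and Rap2a 11.2% ± 1.86 and 10.9% ± 1.72. The ranges of WT and GLC overlapped for each of these shares. The Rap2 shares also carry the uncertainty in the levels of Rap2b and Rap2a given above. Summed over the 9 genes, the level was 317 ± 41.0 CPM per kilobase in WT (SD, n = 5), against 298 ± 26.7 for GLC (SD, n = 6).

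The comparison of GLC with WT asks whether CD4+ cells carry different transcripts when macrophages lack Pggt1b. None of the 9 genes differed between the groups past the threshold of an adjusted p of 0.05 in edgeR's quasi-likelihood test, and the 2 groups overlapped for each of them. The call was made for 0 of 12404 genes overall (0%), with 4.54% of genes at an unadjusted p under 0.05 (2.75% higher and 1.79% lower in GLC; 0 of the 9) and 0.331% with groups that did not overlap, so 0 calls among the 9 is what the whole table gave. In edgeR the adjusted p was 0.9997 for each of the 9. Of the 9 log2 fold changes, 2 were above 0 and 7 below, against 49.9% above and 50.1% below 0 over all genes, and their median was -0.017 against -0.00016 over all genes. The sign of the value was not stable for Rap1a, Rap2a, Nras and Ralb, which each crossed 0 when single libraries were left out, nor for Rap1b and Rap2b, which crossed 0 with the share of counts in Gm42418 as covariate.

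Rap1b and Rap1a are the closely related Rap1 isoforms that activate the integrin LFA-1. Rap1b (ENSMUSG00000052681, chromosome 10, positions 117813871 to 117846035, minus strand) was at 710, 517, 493, 475 and 483 CPM in WT replicates 1 to 5. In GLC its lowest, median and highest values were 407, 488 and 578 CPM. WT replicate 1 alone lay above all other libraries, and the remaining WT libraries lay inside the GLC range. The group means of Rap1b were 536 ± 98.9 CPM (SD, n = 5) for WT and 491 ± 60.4 CPM (SD, n = 6) for GLC. On the log2 scale GLC minus WT came to -0.13 (SE 0.11, 95% interval -0.37 to 0.12), and 2 of 6 libraries of GLC exceeded the WT mean. Without WT replicate 1 the log2 fold change of Rap1b was -0.0065, and with the Gm42418 share as a covariate it was 0.046. Rap1a (ENSMUSG00000068798, chromosome 3, positions 105727267 to 105801336, minus strand) was at 88.7, 75.3, 71.5, 60.3 and 74.5 CPM in WT replicates 1 to 5, and its lowest, median and highest values in GLC were 64.7, 75.3 and 80.3 CPM. WT held both the highest and the lowest library. Rap1a had a log2 fold change of -0.0065 (SE 0.089, 95% interval -0.20 to 0.18).

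Rap2 proteins signal through the kinases TNIK, MINK1 and MAP4K4 among other partners. Rap2c (ENSMUSG00000050029, chromosome X, positions 51003912 to 51018018, minus strand) was at 85.1, 87.9, 83.0, 75.9 and 77.7 CPM in WT replicates 1 to 5, and its lowest, median and highest values in GLC were 77.7, 85.6 and 88.3 CPM. The groups covered nearly the same range, and GLC replicate 9, the library with Y-linked counts, was at 88.3 CPM for this X-linked gene, level with GLC replicate 10. The log2 fold change of Rap2c was 0.040 (SE 0.061, 95% interval -0.090 to 0.17). Rap2b (ENSMUSG00000036894, chromosome 3, positions 61361638 to 61368430, plus strand), a gene of 1 exon, was between 43.6 and 58.4 CPM in WT and between 44.5 and 54.4 CPM in GLC, with a log2 fold change of -0.058 (SE 0.079, 95% interval -0.23 to 0.11). With the Gm42418 share as a covariate the value of Rap2b was 0.017. Rap2a (ENSMUSG00000051615, chromosome 14, positions 120478444 to 120507194, plus strand) was between 13.4 and 19.6 CPM in WT and between 12.9 and 20.5 CPM in GLC, with a log2 fold change of -0.017 (SE 0.13, 95% interval -0.29 to 0.26). The WT range enclosed the GLC range for Rap2b, and the GLC range enclosed the WT range for Rap2a.

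**Figure D2:**
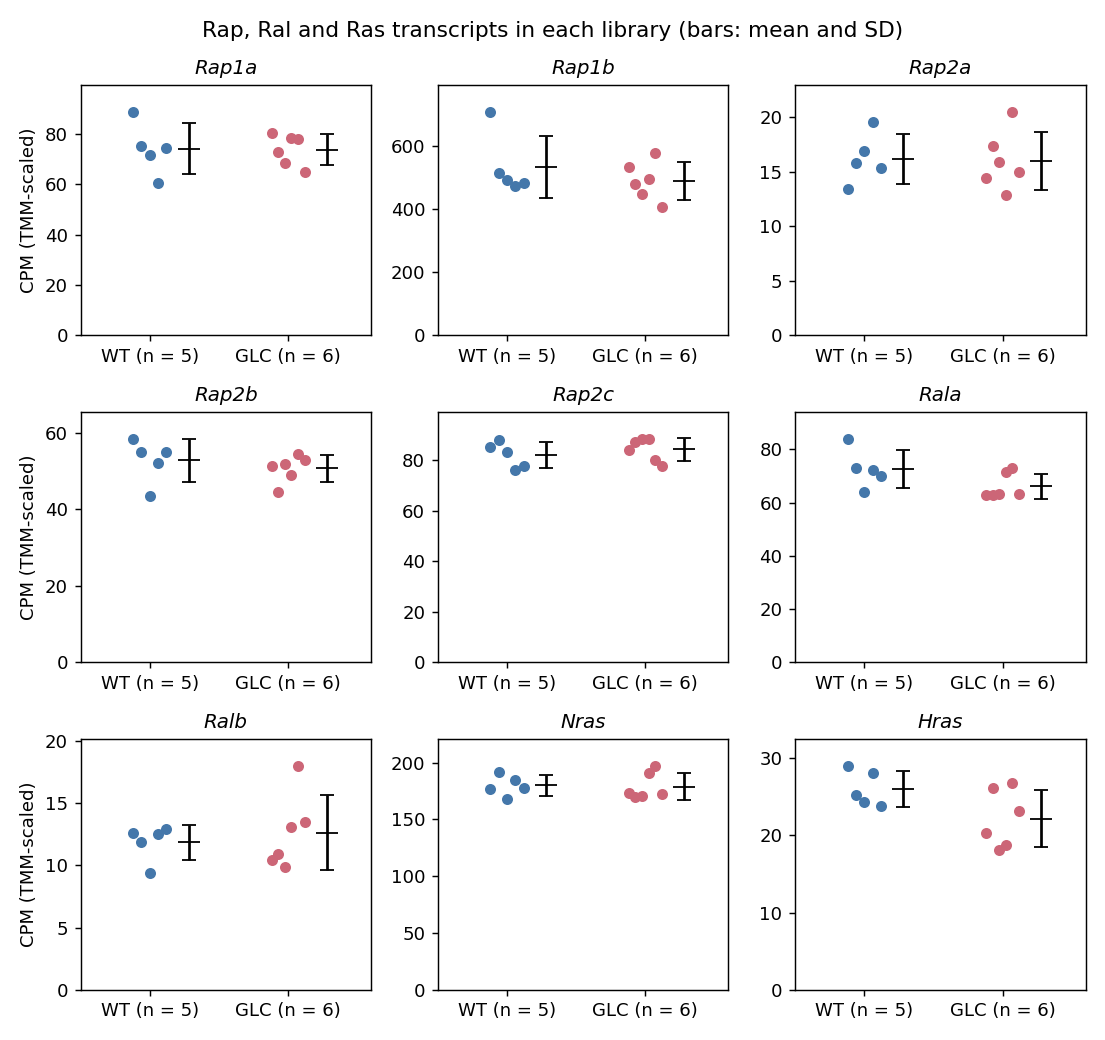
CPM of each gene in each library, for WT (blue) and GLC (red), with the mean and SD beside the points and every axis starting at 0. The groups overlap in all 9 panels, and WT replicate 1 stands apart for Rap1b at 710 CPM.

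Rala and Ralb bind the exocyst subunits Sec5 and Exo84. Rala (ENSMUSG00000008859, chromosome 13, positions 17880571 to 17944239, minus strand) was at 83.9, 73.0, 64.1, 72.1 and 69.9 CPM in WT replicates 1 to 5. In GLC its lowest, median and highest values were 62.7, 63.4 and 73.0 CPM. In GLC, 4 libraries lay between 62.7 and 63.4 CPM, under every WT library, and GLC replicates 10 and 11 were at 71.4 and 73.0 CPM, inside the WT range. The group means of Rala were 72.6 ± 7.19 CPM (SD, n = 5) for WT and 66.1 ± 4.73 CPM (SD, n = 6) for GLC. Rala had a log2 fold change of -0.13 (SE 0.074, 95% interval -0.29 to 0.024), 1 of 6 libraries of GLC exceeding the WT mean, and an unadjusted p of 0.0897 in edgeR. Ralb (ENSMUSG00000004451, chromosome 1, positions 119470305 to 119504794, minus strand) was at 12.6, 11.9, 9.41, 12.5 and 12.9 CPM in WT replicates 1 to 5. In GLC its lowest, median and highest values were 9.87, 12 and 18 CPM. GLC replicate 11 was the highest library, and WT replicate 3 the lowest, so the groups overlapped over most of the WT range. The log2 fold change of Ralb was 0.090 (SE 0.15, 95% interval -0.24 to 0.42), and without GLC replicate 11 it was -0.032.

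Nras and Hras carry receptor signals to the RAF kinases. Nras (ENSMUSG00000027852, chromosome 3, positions 103058285 to 103067914, plus strand) was at 177, 192, 168, 185 and 178 CPM in WT replicates 1 to 5, and its lowest, median and highest values in GLC were 170, 173 and 197 CPM. The 2 groups covered almost the same range. Nras had a log2 fold change of -0.0083 (SE 0.062), and the 95% interval from -0.14 to 0.12 corresponds to a ratio of GLC to WT between 0.908 and 1.09. Hras (ENSMUSG00000025499, chromosome 7, positions 141189105 to 141194005, minus strand) was at 29.0, 25.2, 24.3, 28.1 and 23.8 CPM in WT replicates 1 to 5, and at 20.3, 26.1, 18.1, 18.7, 26.8 and 23.2 CPM in GLC replicates 6, 78, 9, 10, 11 and 12. GLC held the 4 lowest libraries, and GLC replicates 78 and 11 lay inside the WT range. The group means of Hras were 26.1 ± 2.34 CPM (SD, n = 5) for WT and 22.2 ± 3.75 CPM (SD, n = 6) for GLC. The log2 fold change of Hras was -0.23 (SE 0.11, 95% interval -0.47 to 0.014), the farthest from 0 of the 9, with an unadjusted p of 0.0627 in edgeR and 0.0866 in a two-sided exact permutation test. With the Gm42418 share as a covariate it was -0.11, and that of Rala was -0.044.

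**Figure D3:**
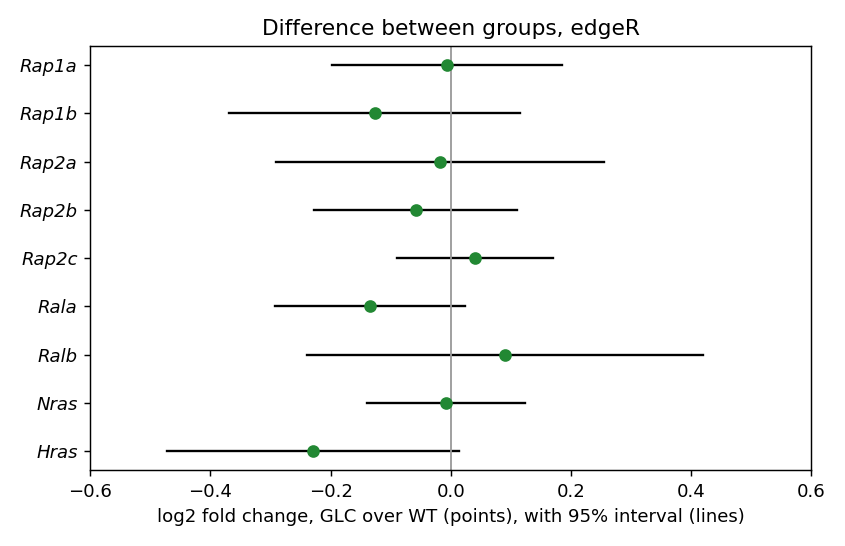
Log2 fold change of GLC over WT for each gene (points) with its 95% interval from edgeR (lines). All 9 intervals include 0, and they run from -0.47 for Hras at the low end to 0.42 for Ralb at the high end.

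Grouped by the CAAX box, the values did not separate. The 5 genes with a leucine codon at the end had log2 fold changes between -0.13 and 0.090 with a median of -0.058, and the 4 others between -0.23 and 0.040 with a median of -0.013. Each group held 1 value above 0. These are transcript levels, and the lipid on the proteins was not measured.

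The 9 genes differed in how steady they were from library to library. Rap2c and Nras were the steadiest of the 9, with within-group SDs of 0.0831 and 0.0842 on the log2 CPM scale, smaller than those of 91.2% and 90.7% of the 8123 genes with a mean of at least 10 CPM. Ralb was the most variable, with an SD of 0.268, and 10.8% of those genes had a larger one. Rap2a followed at 0.217, Rap1b at 0.209 and Hras at 0.199. For Ralb, with 115 to 207 counts a library, counting alone gives an SD of about 0.115, and for Rap2a, with 153 to 249 counts, about 0.10. Rap1b had 5244 to 9077 counts a library, for which counting gives an SD of about 0.0178. For Rap2c and Nras counting gives about 0.0441 and 0.03. The mean CPM of Rap2c lay above that of 78.1% of tested genes, and that of Nras above 90.4%. Their SDs were not compared with those of genes at the same level. The highest library was 1.75 times the lowest for Rap1b, 1.92 times for Ralb and 1.16 times for Rap2c.

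Rap1a and Rap1b varied together over the libraries, by rank. Spearman's rho between their log2 CPM was 0.900 (permutation p = 0.00029, adjusted p = 0.0130 over 45 relations, n = 11), and Pearson's r was 0.816 (permutation p = 0.00283, adjusted p = 0.117, n = 11). Without the 2 libraries farthest from the median of Rap1a, r was 0.883. How the authors' counting treated reads that match both genes is not stated. Among the other 35 pairs of the 9 genes, 0 passed by either measure. Ralb and Nras had r = 0.749 and rho = 0.655 (permutation p of 0.00522 and 0.0331, adjusted p of 0.117 and 0.282), and r was 0.481 without the 2 libraries farthest from the median of Ralb. Rala followed Rap1b with r = 0.764 (permutation p = 0.00792, adjusted p = 0.119; rho = 0.545, permutation p = 0.0867, adjusted p = 0.384), which was 0.372 without 2 libraries. Of all 36 pairs, 26 had an r above 0 and the median r was 0.249.

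The share of counts in Gm42418 moved with some of these genes. Its r was 0.725 with Rala (permutation p = 0.0169, rho = 0.636, permutation p = 0.0403), 0.670 with Hras (permutation p = 0.018, rho = 0.745, permutation p = 0.0112) and 0.662 with Rap1b (permutation p = 0.0508, rho = 0.273, permutation p = 0.418). With Rap2c the share had a negative relation, with r = -0.301 (permutation p = 0.402) and rho = -0.627 (permutation p = 0.0439). None of these passed after adjustment over the 45 relations. For Rala, Hras, Rap1b and Rap2c the adjusted permutation p was 0.162, 0.162, 0.286 and 0.713 for r. For rho it was 0.282, 0.208, 0.697 and 0.282 in the same order. Without the 2 libraries of most extreme share, r was 0.139 for Rala, 0.525 for Hras, 0.106 for Rap1b and -0.711 for Rap2c. The part of this share in the group values was not tested beyond the covariate fit.

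**Figure D4:**
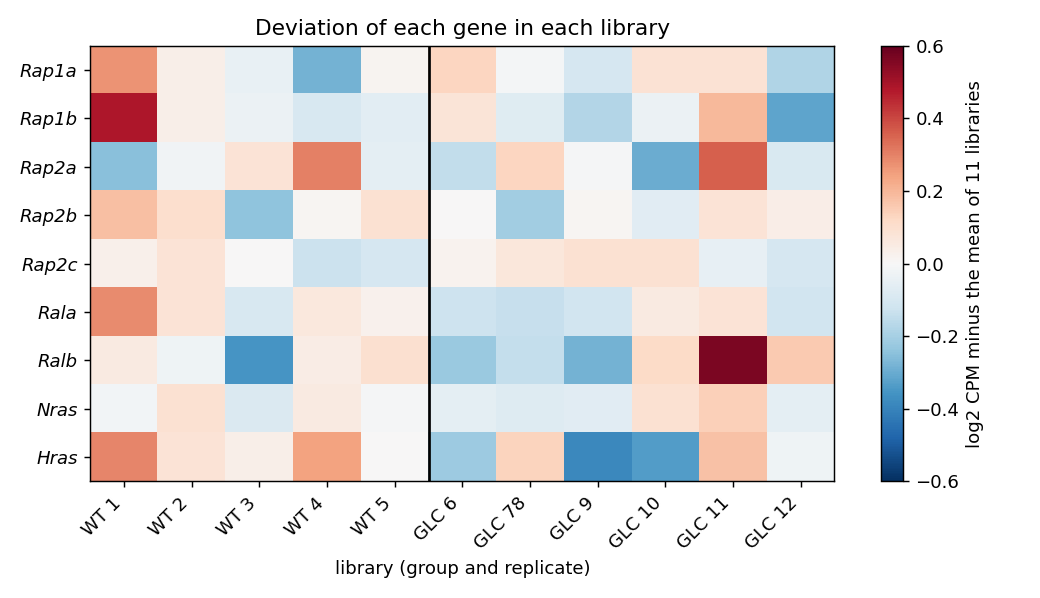
Log2 CPM of each gene in each library minus its mean over the 11 libraries, with WT to the left of the black line and GLC to the right. Rap1a and Rap1b have the same sign in most libraries, and Rap1b in WT replicate 1 and Ralb in GLC replicate 11 are the darkest cells.

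The genes whose log2 CPM was most like each of the 9 were taken by Pearson's r over the 11 libraries among 10487 other protein-coding genes, as a description. For Rap1b they were Hnrnpc, an RNA-binding protein of the nucleus (r = 0.976), and Eif4g2, a translation factor (r = 0.971). For Rap1a they were Eif2a (r = 0.944) and Tgoln1, a protein of the trans-Golgi network (r = 0.929). For Rap2a they were Abtb1 (r = 0.931) and Mprip (r = 0.920), for Rap2b Swi5 (r = 0.967) and the ribosomal protein gene Rps20 (r = 0.938), and for Rap2c Pphln1 (r = 0.906) and Tmx3 (r = 0.905). Rala was most like Dnajc9 (r = 0.931) and Vti1b, a SNARE of vesicle fusion (r = 0.927). Ralb was most like Clic1 (r = 0.974) and Ass1, argininosuccinate synthase (r = 0.930), with rho of 0.982 and 0.891. Nras was most like Ibtk (r = 0.907) and Slc16a10, an amino acid transporter (r = 0.878), and Hras most like Hilpda, a lipid droplet protein (r = 0.923), and Rrp7a (r = 0.890).

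Genes that switch Rap on and off were present at levels that differed widely and did not differ between groups past the threshold. Of 9 Rap exchange factors 8 were tested, 3 with a log2 fold change above 0 and 5 below (median -0.053), and 0 passed in edgeR. Rapgef6 was the most abundant of them at 663 ± 50.7 CPM (SD, n = 5) in WT against 635 ± 64.3 CPM (SD, n = 6) in GLC. Rapgef3, the cyclic AMP sensor also called Epac1, was at 0.878 ± 0.430 CPM in WT against 1.69 ± 0.751 CPM in GLC, for a log2 fold change of 0.94 (SE 0.42, adjusted p = 0.9997 in edgeR) at a level of few reads. Rapgef4 was at -0.19 (SE 0.13) and Rapgef5 at 0.57 (SE 0.39). Of 7 Rap GTPase-activating proteins 6 were tested, 2 above 0 and 4 below (median -0.018), with Rasa3, which acts on both Rap1 and Ras, at 991 ± 135 CPM in WT against 942 ± 112 CPM in GLC, Sipa1 at a log2 fold change of 0.10 (SE 0.099) and Rap1gap2 at 0.45 (SE 0.39). Of 17 Rap effectors and integrin partners 16 were tested, 11 above 0 and 5 below (median 0.032), and 0 passed. The Mst1 kinase gene Stk4 was at 997 ± 97.7 CPM in WT against 898 ± 85.9 CPM in GLC (a log2 change of -0.15, SE 0.086), and Itgal, the alpha chain of LFA-1, at 247 ± 20.4 CPM and 270 ± 29.8 CPM (0.13, SE 0.083).

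No gene of the Ral lists passed either. Of 6 Ral exchange factors 5 were tested, 1 above 0 and 4 below (median -0.055), with Rgl2 the most abundant at 89.3 ± 16.0 CPM in WT against 85.7 ± 10.2 CPM in GLC and Ralgds at a log2 fold change of 0.12 (SE 0.13). The 3 subunits of the Ral GTPase-activating complexes, Ralgapb, Ralgapa1 and Ralgapa2, were at log2 fold changes of 0.023, -0.012 and -0.0027 (SEs of 0.064, 0.070 and 0.078). All 11 Ral effectors were tested, 8 above 0 and 3 below (median 0.037), and 0 passed in edgeR. The kinase gene Tbk1 was at 105 ± 2.38 CPM in WT against 112 ± 5.94 CPM in GLC (log2 fold change 0.093, SE 0.055).

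Regulators and effectors of Ras gave the same picture of 0 calls. Of 8 Ras exchange factors 6 were tested, 1 above 0 and 5 below (median -0.078). Rasgrp1, the main exchange factor for Ras downstream of the T cell receptor, was at 460 ± 54.1 CPM in WT against 444 ± 35.8 CPM in GLC, and Sos1 had a log2 change of -0.091 (SE 0.072). Of 12 Ras GTPase-activating proteins 11 were tested, 5 above 0 and 6 below (median -0.016). Dab2ip was at 0.745 ± 0.138 CPM in WT against 1.51 ± 0.977 CPM in GLC, for a log2 fold change of 1.01 (SE 0.39, adjusted p = 0.9997 in edgeR). This too is a level of few reads, between 0.574 and 3.38 CPM over the libraries. Of 15 Ras effectors 14 were tested, 5 above 0 and 9 below (median -0.011), with Rin3 at a log2 fold change of -0.14 (SE 0.071) and the scaffold gene Ksr1 at 0.22 (SE 0.12). Of 18 genes that ERK signalling induces, 16 were tested, 3 above 0 and 13 below (median -0.062), and 0 passed or had an unadjusted p under 0.05 in edgeR. The most abundant of these, Fosl2, was at 409 ± 125 CPM in WT against 398 ± 109 CPM in GLC.

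Among enzymes and chaperones of the CAAX box, all 13 were tested, 5 above 0 and 8 below (median -0.039). Pggt1b had the smallest p of these, with a log2 fold change of 0.32 (SE 0.10, 95% interval 0.10 to 0.54) and an adjusted p of 0.9997 in edgeR. Lypla1, a thioesterase that can remove palmitate, was at 0.13 (SE 0.068), and Fnta, the subunit shared by farnesyltransferase and GGTase I, at -0.086 (SE 0.068). Of 15 other GTPases of the Ras family 6 were tested, 3 above 0 and 3 below. Rras2, also called TC21, a close relative of Ras that is needed for T cell homeostasis, was at 190 ± 20.3 CPM in WT against 156 ± 18.1 CPM in GLC. All 6 GLC libraries were under the WT mean of Rras2, with a log2 fold change of -0.28 (SE 0.089, 95% interval -0.47 to -0.091, unadjusted p = 0.00687 and adjusted p = 0.9997 in edgeR). Over all 12 lists, 4 of 112 distinct genes tested had an unadjusted p under 0.05, or 3.57%, against 4.54% over all genes tested.

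**Figure D5:**
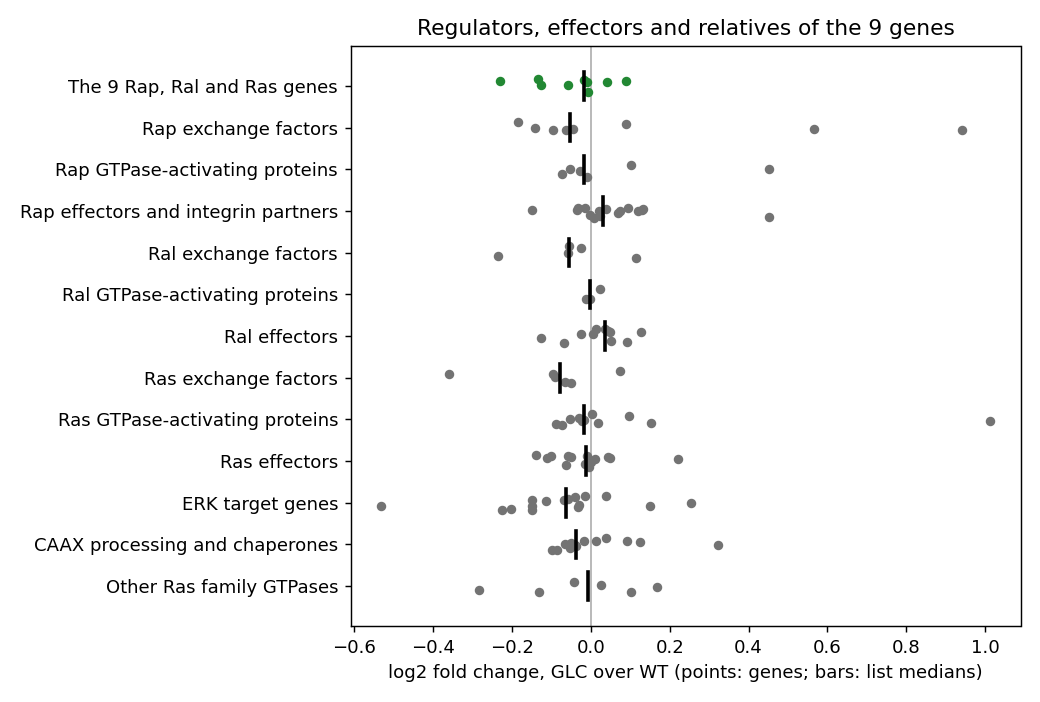
Log2 fold change of GLC over WT for the 9 genes (green) and for the tested members of 12 lists of their regulators, effectors and relatives (grey), with black bars for list medians. The medians lie between -0.078 and 0.037, and the points farthest to the right are Dab2ip at 1.01 and Rapgef3 at 0.94, both at a level of few reads.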

How the data were processed

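The deposited table holds raw counts, whole numbers of reads assigned to each gene by the authors, for 11 libraries. Per the submitters' processing notes STAR, featureCounts and the build mm10 were used. The sources used here do not give versions, annotation, strand setting or the handling of multi-mapping reads. Symbols, positions and exon lengths came from GENCODE M21 (GRCm38, the assembly mm10 names), which matched 55230 of 55471 identifiers, and 0 columns were left without a sample. Groups and replicate numbers came from the sample titles. The labels do not say how many mice gave each library other than GLC replicate 78, so p-values measure the spread between these samples.

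The main test was edgeR 4.0.16 under R 4.3.3: filterByExpr by group, TMM scaling, glmQLFit and glmQLFTest over 5 WT and 6 GLC libraries without covariates, two-sided, with Benjamini-Hochberg adjustment over all 12404 genes. Log2 fold changes are GLC over WT, log2 CPM adds a prior count of 2, and SEs come from the quasi-likelihood F statistic. CPM per kilobase divides by merged exon length. Correlations used 100000 permutations, and the exact permutation test used all 462 splits, whose smallest p is 0.00216. Copies were searched with blastn 2.17.0 (at least 90% identity over 200 bases). Simulated counts with known changes were used to test the edgeR script.

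The 9 genes and the lists of regulators, effectors and markers were chosen with earlier results of these data known. Named genes were the 9, Pggt1b, from each list those of the 3 smallest p and the most abundant, a part of which is printed (1 gene of the Ral effector list is not reported here), and the 2 most like each of the 9. Alternatives were RLE and upper quartile scaling, other filters, a robust fit, DESeq2 1.42.0, limma-voom (limma 3.58.1) with and without quality weights, the mean of the B cell markers as a covariate, a threshold of 0.1, single libraries left out, and the longest transcript as length. A covariate for the Gm42418 share of counts, and GLC replicates 9 and 78 left out together, were chosen after seeing the data.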

Additional observations from a re-analysis of the deposited data

Results flagged for a closer look

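Of 18 groups of values (9 genes in WT and in GLC), 2 held a library far from the others by Dixon's criterion at the 95% level, which chance flags in about 1 of 20 groups. Rap1b was at 710 CPM in WT replicate 1, against 475 to 517 CPM in the other WT libraries. That library also had the highest share of counts in Gm42418, 10.0%. Ralb was at 9.41 CPM in WT replicate 3, against 11.9 to 12.9 CPM in the other WT libraries, with 133 counts there, and its gap lay just at the critical value.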

How the results depend on the processing

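No adjusted p of the 9 genes passed 0.05 under any alternative that gave one (smallest 0.701). Hras, Rala and Rap2c kept their direction under every alternative run. With the Gm42418 share as a covariate the log2 fold changes of Rap1a, Rap1b and Rap2b turned to 0.055, 0.046 and 0.017. Rap1a also turned with voom quality weights (0.018), with GLC replicates 9 and 78 left out together (0.023) and as a difference of log2 CPM in the exact test (0.00015), and Nras turned with those 2 libraries left out (0.025). RLE and upper quartile scaling turned the sign of none of the 9. The cause of these turns was not tested. With single libraries left out the log2 fold change ranged from -0.071 to 0.063 for Rap1a, -0.17 to -0.0065 for Rap1b, -0.093 to 0.060 for Rap2a, -0.12 (without WT replicate 3) to -0.019 (without GLC replicate 78) for Rap2b, 0.014 (without WT replicate 4) to 0.067 (without WT replicate 2) for Rap2c, -0.033 to 0.015 for Nras, -0.032 to 0.15 for Ralb, -0.17 to -0.080 for Rala and -0.28 to -0.17 for Hras. The smallest unadjusted p in edgeR was 0.0245 for Hras without GLC replicate 11 and 0.0399 for Rala without WT replicate 3. Over all genes edgeR called 1 gene with no filter on low counts and DESeq2 called 2, against 0 in the main test, none of them among the 9. With the longest transcript as length, Nras was at 40.2, Hras at 8.48 and Ralb at 4.48 CPM per kilobase, because their merged exons are longer. No paired analysis was possible because WT and GLC share no replicate number. Counts of 115 to 249 a library limit Ralb and Rap2a most.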
